A study of Mus musculus with 12 samples.

Results

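Microglia lacking Slc2a5, the gene of the fructose transporter GLUT5, were compared straight after oxygen-glucose deprivation (OGD), in which cultured cells go without both as in ischaemia, and after a further day of recovery. The comparison set 3 libraries taken after 6 h of OGD and 24 h of recovery (KO-recovery) against 3 taken after 6 h of OGD alone (KO-OGD), out of 12 libraries in the series. It was described across the 18165 genes on the 19 mouse autosomes that passed a filter on low counts, of 18842 genes tested, and the 615 tested genes on X and Y were left out. The other 6 libraries came from microglia with intact Slc2a5 (WT-OGD and WT-recovery, 3 each). They served to test whether a change with recovery differed between the genotypes. They also entered the filter, the scaling and the estimate of spread behind each test of recovery in KO. The genotypes were labelled Slc2a5-/-::Cx3cr1EGFP and Cx3cr1EGFP, so all 4 groups carried a green Cx3cr1 reporter. It is on in microglia, though not shown here to be on in them alone, and cells can be sorted by it. All were labelled as sorted and cultured brain microglia of male mice aged postnatal days 35 to 40, although the extraction protocol gave a wider age range. No sample without OGD was analysed here, and the recovered cells had also been kept a day longer, so the return of oxygen and glucose and the added time cannot be told apart. The labels do not say whether replicates are separate animals or cultures, so p-values measure the spread between these samples alone, and it may be technical.

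As background, microglia are the resident macrophages of the brain, and they respond to energy failure with the same programs as most cells: the hypoxia factor HIF raises glycolytic genes, the factor ATF4 raises genes of amino acid supply when translation is slowed, and the unfolded protein response serves the endoplasmic reticulum. When oxygen and glucose return, macrophages can turn to chemokine release, interferon-type signalling, complement, matrix remodelling and cell division. GLUT5 carries fructose into cells, and in the brain it is known as a transporter of microglia.

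Total counts were 31509859 to 44142877 in the KO-OGD libraries and 13407885 to 19915479 in the KO-recovery libraries, so low genes had the wider error after recovery. In WT-OGD and WT-recovery they were 32426683 to 45347118 and 9885259 to 15495478. Mitochondrial transcripts took 4.2% to 5.36% of the counts in KO-OGD and 4.72% to 10.45% in KO-recovery, and 4.94% to 5.75% in WT-OGD and 7.35% to 18.42% in WT-recovery. WT-recovery replicate 1 stood apart, with 18.42%, the lowest total of all 12 libraries, 25.1% of its counts in 10 genes, and chi-square values per degree of freedom of 60.2 and 50.7 against the other libraries of its group, which had 6.66 between them. Without it, 473 differences between genotypes were called higher in KO and 383 lower, against 511 and 423 with it. Levels are given as CPM, counts scaled to a common library size with TMM factors, in the order of replicates 1, 2 and 3. In all 927 checked cases of a gene lying inside another one without sharing an exon, the outer gene's count was at least that of the inner gene, on either strand. Counts therefore covered whole gene spans with introns, without regard to strand, and reads in overlapping genes were counted for each of them. A gene is called uncertain below where another gene could account for 25% or more of its count, which held for 4466 of the 18165 genes (24.6%).

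Some libraries stood apart or went against their labels. KO-recovery replicates 1 and 3 held muscle, cartilage and connective tissue transcripts of which replicate 2 held far less, so counts that rest on them are also given with replicate 2 as the only recovered KO library, which is then assumed to vary like the other groups. KO-OGD replicate 2 stood apart in stress genes. Its chi-square values per degree of freedom were 42.8 and 26.4 against replicates 1 and 3, which had 11 between them. By the same measure KO-recovery replicate 3 stood apart, with 44.7 and 56.7 against replicates 1 and 2, which had 11.1 between them. Its mitochondrial share was 4.72%, against 8.23% and 10.45% in those replicates. Without it, 882 differences between genotypes were called higher in KO and 831 lower. Although every sample was labelled male, Xist, the RNA of the inactive X of females, had 4101 to 10232 counts in each KO and each WT-OGD library and at most 3 in each WT-recovery library, while Y-linked genes had counts in all 12. The ratio of Xist to Y-linked counts was 3.16 to 3.99 in KO-OGD and 4.99 to 7.17 in KO-recovery, without overlap, so this ratio moved with recovery in KO as well. Sex make-up thus cannot be told apart from recovery in the KO comparison, nor from the group WT-recovery in the difference between genotypes, and its part in the results was not tested. The treatment label of WT-recovery replicate 1 named no recovery, and its title, which was followed here, did.

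The labels were checked next against genes. Slc2a5 (ENSMUSG00000028976.10, chromosome 4, 150119283 to 150144169, GRCm38) stood at 0.402, 0.131 and 0.465 CPM in KO-OGD and at 1.10, 1.18 and 1.21 CPM in WT-OGD, with every KO library below every WT library. After recovery it had 1 count over the 3 KO libraries against 38 counts before, a ratio of 17.2 (95% exact counting interval 2.9 to 695), and WT-recovery libraries were at 0.114, 0.122 and 0 CPM, so this gene does not check the genotype labels there. The deleted part of the gene is not given in the sources used here. Such intervals, and floors set for a count of 0, reflect counting error alone, as reads without molecular identifiers may repeat 1 molecule. The 12 microglia and macrophage markers summed to 8059 to 8527 CPM in KO-OGD and to 10020 to 12560 CPM in KO-recovery. Of the genes that set microglia apart from other macrophages, Tmem119 was nearly absent after OGD, at 0.166, 0.263 and 0.164 CPM, and Siglech and Crybb1 were below the filter. The cells thus carried macrophage markers at high levels and the microglia-defining ones at low levels.

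Recovery changed the RNA of KO microglia widely. Of 18165 autosomal genes, 10732 (59.1%) were called at an adjusted p below 0.05 by edgeR's quasi-likelihood test with Benjamini-Hochberg adjustment over all 18842 genes, from which every adjusted p below also comes. Of these, 5331 (29.3%) were higher and 5401 (29.7%) were lower after recovery. At least 2-fold rises numbered 2660 (14.6%) and at least 2-fold falls 1866 (10.3%), and for 61.4% of genes the KO-OGD and KO-recovery groups did not overlap. These shares are the background against which each gene list is read. Chemokine, interferon, complement, matrix protease and cell cycle genes stood mainly on the side of rises, and HIF, ATF4, immediate early and ribosomal protein genes mainly on the side of falls.

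**Figure D1:**
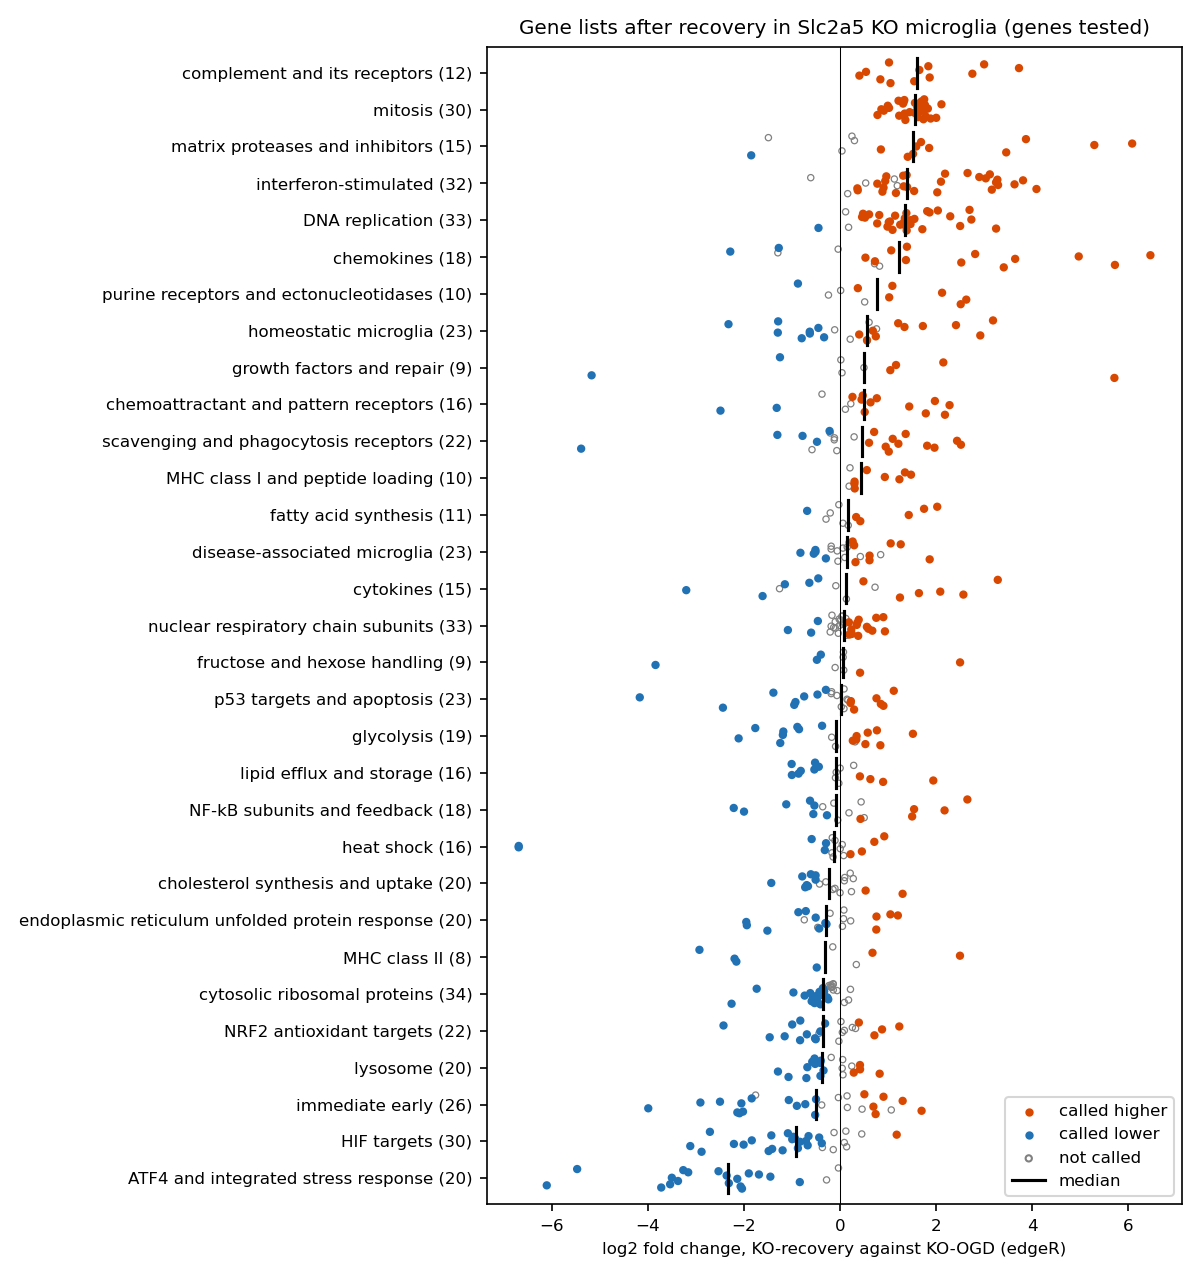
Log2 fold change of every tested gene of the 31 pathway lists in KO-recovery against KO-OGD, 1 point per gene, with the number tested in parentheses, filled points for genes called higher or lower, open points for genes not called, and a bar at the list's median. All 12 complement and all 30 mitosis genes are called higher, and the ATF4 list has the lowest median, at -2.34.

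The promoters of 4 genes are shown because each belongs to a list whose members moved together, and each holds the short motif known for that list. The windows run from 250 bases before to 50 after a start site (RefSeq, GRCm38.p6, printed 5′ to 3′ on the gene's strand), and capitals mark the motif: ACGTG, the core of the hypoxia element, in Ddit4 (chr10:59951721-59952020, minus strand), TTGCATCA, the amino acid response element bound by ATF4, in Chac1 (chr2:119350992-119351291, plus strand), GAAANNGAA, a form of the interferon element, in Ifitm3 (chr7:141010695-141010994, minus strand), and TTTGAA, the CHR element of mitotic genes, in Mki67 (chr7:135716330-135716629, minus strand).
Ddit4: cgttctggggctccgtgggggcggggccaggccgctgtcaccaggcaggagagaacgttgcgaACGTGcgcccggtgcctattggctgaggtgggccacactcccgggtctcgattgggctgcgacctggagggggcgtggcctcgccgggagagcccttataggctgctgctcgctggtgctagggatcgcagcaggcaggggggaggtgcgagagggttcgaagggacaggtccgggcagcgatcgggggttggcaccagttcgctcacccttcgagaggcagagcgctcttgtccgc
Chac1: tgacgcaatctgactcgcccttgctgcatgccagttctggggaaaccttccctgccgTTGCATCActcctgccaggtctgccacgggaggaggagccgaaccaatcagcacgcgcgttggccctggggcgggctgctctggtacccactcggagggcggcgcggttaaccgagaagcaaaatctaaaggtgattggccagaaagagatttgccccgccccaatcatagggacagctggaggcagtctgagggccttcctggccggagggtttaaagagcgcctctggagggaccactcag
Ifitm3: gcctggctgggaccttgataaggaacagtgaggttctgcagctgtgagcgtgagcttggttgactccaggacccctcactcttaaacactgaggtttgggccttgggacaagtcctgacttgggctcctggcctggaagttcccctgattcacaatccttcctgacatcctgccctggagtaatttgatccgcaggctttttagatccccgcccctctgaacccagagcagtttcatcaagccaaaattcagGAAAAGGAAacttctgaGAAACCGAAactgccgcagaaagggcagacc
Mki67: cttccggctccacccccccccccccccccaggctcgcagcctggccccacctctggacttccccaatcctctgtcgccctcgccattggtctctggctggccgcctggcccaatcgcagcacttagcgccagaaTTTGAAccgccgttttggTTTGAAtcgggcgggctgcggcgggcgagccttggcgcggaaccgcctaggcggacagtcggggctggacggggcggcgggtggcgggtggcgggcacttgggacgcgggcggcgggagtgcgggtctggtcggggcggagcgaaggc
Each motif was searched on both strands. The E-box CACGTG contains ACGTG and was counted with it, and GAAANNGAA and TTTGAA can share the bases GAA. ACGTG was in 18 of 36 windows of HIF targets and in 19.7% of all 31396 autosomal windows. TTGCATCA was in 4 of 20 windows of the ATF4 list (20.0%), those of Chac1, Slc7a11, Nupr1 and Vldlr, and in 0.8% of all windows. GAAANNGAA was in 57.7% of 26 windows of interferon-stimulated genes against 8.5%, and TTTGAA in 77.8% of 27 windows of mitosis genes against 17.6%. Some genes with a motif were not called. Of 16 HIF targets with ACGTG these were Car9 and Higd1a. Of 15 interferon-stimulated genes with GAAANNGAA they were Ifit3b, Isg15, Rsad2 and Bst2. A high motif share did not go with a shared direction in every list. TTTGAA was in 9.4% of 32 windows of DNA replication genes, of which 30 of 33 rose. ACGTG was also in 48.3% of 29 windows of glycolysis genes, and the heat shock element GAANNTTC in 61.1% of 18 windows of heat shock genes against 7.9% of all windows, 2 lists whose members went both ways. The antioxidant element TGACNNNGC was in 24.0% of 25 windows of NRF2 targets against 12.5%, and the sterol element TCACNCCAC in 6.7% of 15 windows of cholesterol genes against 1.3%. A match is a description of these letters and not a binding site, and Vldlr and Nupr1, which hold the ATF4 element, were also the ATF4 list members that were not called (log2 fold changes -0.03 and -0.28, adjusted p = 0.938 and 0.533).

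Hypoxia genes were lower after recovery. Of 30 HIF targets, 21 fell and 1 rose, with a median log2 fold change of -0.91 against -0.002 over all autosomal genes, and 11 of the falls were at least 2-fold. Vegfa, the vascular growth factor, stood at 32.6, 37.5 and 29.0 CPM after OGD and at 6.79, 5.31 and 3.00 CPM after recovery (log2 fold change -2.71, SE 0.23, adjusted p = 5.32e-07). Ddit4, an inhibitor of the growth kinase mTORC1, went from 14.5, 12.8 and 14.8 to 1.78, 1.88 and 1.23 CPM (log2 fold change -3.12, SE 0.17, adjusted p = 1e-09). Neither gene's groups overlapped, and every recovered library was several-fold below every deprived one. Ero1l, the oxidase that forms disulphide bonds in the endoplasmic reticulum, fell as well (log2 fold change -2.21, SE 0.15, adjusted p = 1.79e-08). The exception was Pfkfb4, a regulator of glycolytic flux, which rose from 21.6, 25.2 and 20.6 to 53.2, 50.5 and 49.0 CPM (log2 fold change 1.18, SE 0.10, adjusted p = 1.15e-07), again without overlap. The main glucose transporter Slc2a1, uncertain because Gm12868 overlaps it, went from 245, 323 and 225 to 110.2, 121 and 142 CPM (log2 fold change -1.09, SE 0.16, adjusted p = 4.92e-05).

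Glycolytic genes did not share one direction: 8 of 19 rose and 8 fell. Hk2, an inducible hexokinase that traps glucose, fell from 259.7, 288 and 245 to 60.0, 55.4 and 67.7 CPM (log2 fold change -2.11, SE 0.09, adjusted p = 9.84e-11), and the difference of its change from that in WT was -0.46 on the log2 scale (adjusted p = 0.0411), a call that 10 of the 12 settings without 1 library lost. Slc16a3, the lactate exporter MCT4, fell from 65.7, 102 and 56.1 to 19.3, 21.1 and 25.4 CPM (log2 fold change -1.76, SE 0.22, adjusted p = 2.33e-05). In both genes the deprived and the recovered libraries were fully apart. Pkm, pyruvate kinase, rose from 784, 1028 and 760.3 to 1408, 1506 and 1467 CPM (log2 fold change 0.77, SE 0.11, adjusted p = 3.14e-05), and Pfkm, a phosphofructokinase, rose by 1.52 (adjusted p = 1.45e-07). Ldha, lactate dehydrogenase, rose less, by 0.34 (SE 0.09, adjusted p = 0.00275). Of 9 genes of fructose and hexose handling, 2 rose and 3 fell, one of the falls being Slc2a5 itself and another, Slc2a8, not called with KO-recovery replicate 2 alone. The hexose transporter gene Slc2a6 rose from 9.52, 4.44 and 7.52 to 39.4, 40.8 and 42.6 CPM (log2 fold change 2.50, SE 0.23, adjusted p = 1.38e-06), whereas Khk, the fructokinase, was at 13.4, 14 and 14.1 CPM after OGD and 12.6, 18.4 and 13.1 CPM after recovery (log2 fold change 0.08, adjusted p = 0.647).

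Targets of ATF4 had the largest share of falls of the 31 pathway lists. Of 20 genes of the integrated stress response, 18 fell, 17 of them at least 2-fold, and none rose, with a median log2 fold change of -2.34. Chac1, which degrades glutathione, went from 44.1, 23.1 and 42.9 to 0.595, 0.653 and 0.375 CPM (log2 fold change -6.11, SE 0.32, adjusted p = 5.85e-09). Trib3, a pseudokinase that restrains ATF4, went from 182, 97.6 and 169.9 to 3.47, 4.49 and 2.41 CPM (log2 fold change -5.47, SE 0.32, adjusted p = 9.87e-08). Asns, asparagine synthetase, went from 177, 134 and 168 to 11.4, 13.9 and 11.2 CPM (log2 fold change -3.72, SE 0.13, adjusted p = 1.6e-11). All recovered libraries lay below all deprived ones in these 3 genes. Within KO-OGD, replicate 2 stood lower than the other two in several of them, as in Ddit3, a pro-death factor counted with a second entry of its own name and so uncertain, at 369, 141 and 334 CPM. Without that library the ATF4 list still had 18 falls.

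The wider stress programs were split. Of 20 unfolded protein response genes of the endoplasmic reticulum, 4 rose and 9 fell, or 12 fell without KO-OGD replicate 2. Dnajb9 and Herpud1, a chaperone partner and a component of protein degradation, fell (log2 fold changes -1.94 and -1.95, adjusted p = 1.65e-06 and 0.000631). The disulphide isomerases Pdia4, Pdia6 and Pdia3 rose by 1.20, 1.05 and 0.76 (adjusted p = 0.000545, 5.45e-05 and 8.36e-05). Hspa5, the master chaperone BiP, was at 2770, 856 and 2652 CPM after OGD and 1184, 1396 and 1166 CPM after recovery, and it was not called (log2 fold change -0.74, adjusted p = 0.106). Its KO-OGD replicate 2 lay below all recovered libraries, and the other two far above them. Of 16 heat shock genes, 4 rose and 5 fell, with 3 falls without KO-recovery replicate 1 or replicate 2. The inducible Hspa1a, uncertain because it shares reads with Gm20481 and has a near-identical copy in Hspa1b, was at 17.5, 0.394 and 13.7 CPM after OGD and 0.0992, 0.163 and 0.0535 CPM after recovery (log2 fold change -6.69, SE 1.57, adjusted p = 0.00535), and it was called neither with KO-recovery replicate 2 alone nor with limma-voom. The lowest deprived library was again replicate 2, while the constitutive Hspa8 rose from 488, 469 and 490 to 770.5, 874 and 727 CPM (log2 fold change 0.71, SE 0.09, adjusted p = 7.84e-06).

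Of 22 NRF2 antioxidant genes, 11 fell and 4 rose, with a median of -0.36. Sqstm1, the autophagy receptor p62, fell from 1640, 1123 and 1574 to 256, 298 and 253 CPM (log2 fold change -2.43, SE 0.14, adjusted p = 1.62e-09), and the peroxidase gene Prdx1 rose from 1153, 1491 and 1149 to 2635, 2739 and 3550 CPM (log2 fold change 1.23, SE 0.14, adjusted p = 2.8e-06). Both were without overlap. Gclm, a subunit of the enzyme that starts glutathione synthesis and uncertain because of Gm17494, was at 147, 242 and 153 CPM and then 57.1, 55.0 and 131 CPM (log2 fold change -1.15, SE 0.33, adjusted p = 0.0123), with KO-recovery replicate 3 well above the other recovered libraries. Without KO-OGD replicate 2 this fall was not called. In the p53 and apoptosis list 8 of 23 fell and 7 rose. Gadd45a, a growth arrest gene that overlaps E230016M11Rik and is uncertain, went from 196, 83.1 and 190.4 to 10.0, 7.92 and 7.98 CPM (log2 fold change -4.17, SE 0.33, adjusted p = 1.93e-06), and Bbc3, the pro-apoptotic PUMA, fell from 28.9, 24.3 and 26.3 to 5.25, 4.90 and 4.50 CPM (log2 fold change -2.44, SE 0.13, adjusted p = 7.65e-10). Cdkn1a, the p53 target that arrests the cell cycle, was at 251, 291 and 274 CPM and then 304, 340.1 and 259 CPM and was not called (log2 fold change 0.14, adjusted p = 0.236). Gdf15, a stress-released growth factor of the growth and repair list, fell from 125, 104 and 109.9 to 3.17, 4.65 and 1.93 CPM (log2 fold change -5.17, SE 0.19, adjusted p = 5.92e-11).

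Large falls outside these programs were those of Efcc1 (log2 fold change -7.11), C77080 (-6.89), Filip1l (-5.77), Cd5l (-5.39) and Cox6a2 (-5.10), with adjusted p = 6.37e-08, 2.28e-11, 3.75e-07, 9.71e-10 and 1.96e-11. Filip1l was also the most abundant of them, at 5918, 3332 and 4652 CPM after OGD and 57.8, 65.4 and 131 CPM after recovery. Cmss1 encloses Filip1l and moved by a near-identical -5.72, so its count is uncertain. Cd5l encodes a secreted macrophage protein that binds lipids, and Cox6a2 the muscle form of a respiratory chain subunit. In each of the 5 genes every recovered library was below every deprived one.

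**Figure D2:**
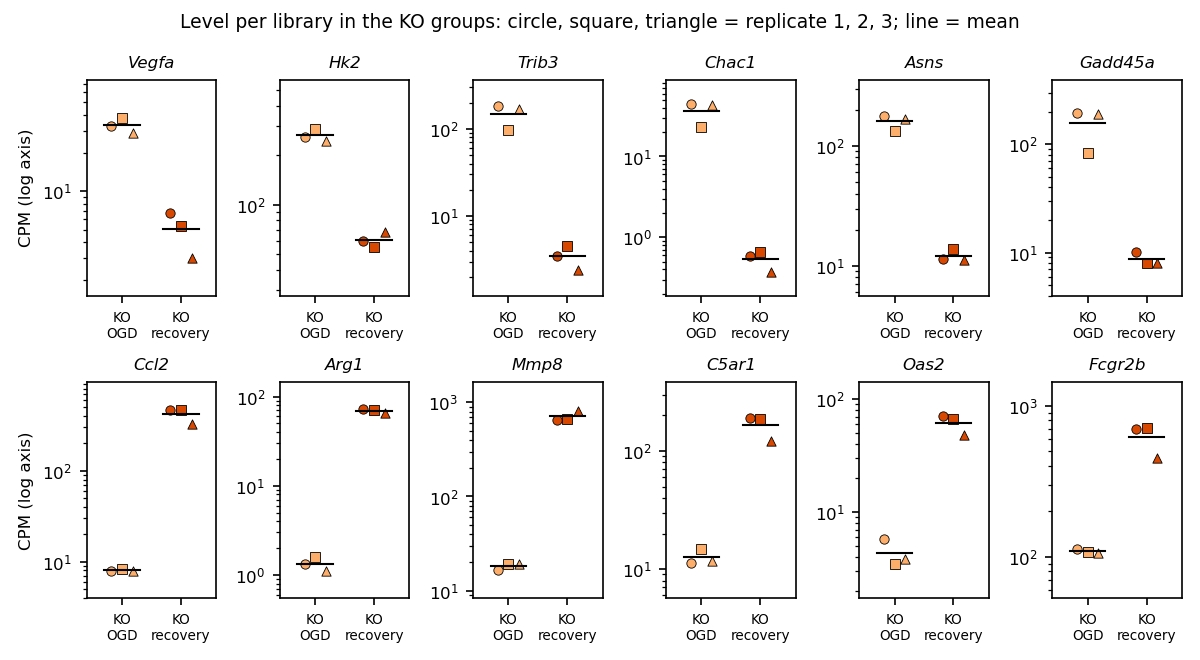
Levels of 12 genes in the 6 KO libraries (CPM, log axis): circle, square and triangle are replicates 1, 2 and 3, and the line is the group mean. Vegfa, Hk2, Trib3, Chac1, Asns and Gadd45a sit lower after recovery, and Ccl2, Arg1, Mmp8, C5ar1, Oas2 and Fcgr2b sit higher, with no overlap between the groups.

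Immediate early genes, which answer signals within minutes, fell more often than they rose: of 26, 13 fell, 6 rose and 7 were not called. Junb, an AP-1 subunit, went from 67.7, 79.5 and 63.8 to 9.22, 8.90 and 9.90 CPM (log2 fold change -2.91, SE 0.13, adjusted p = 2.51e-10), and Dusp1, a phosphatase that ends MAP kinase signals, from 71.8, 56.0 and 67.8 to 16.5, 13.7 and 15.4 CPM (log2 fold change -2.09, SE 0.11, adjusted p = 6.14e-10). Jun and Jund, both uncertain because of small overlapping genes, fell as well (log2 fold changes -2.06 and -2.50, adjusted p = 8.67e-10 and 3.2e-08). Egr2 went the other way, from 33.3, 46.1 and 33.2 to 112, 102 and 150.1 CPM (log2 fold change 1.70, SE 0.15, adjusted p = 3.04e-07). Fos was at 32.4, 37.4 and 27.6 CPM and then 52.6, 43.6 and 37.4 CPM, which was not called (log2 fold change 0.46, adjusted p = 0.0503). Its change was higher than that in WT by 1.09 (adjusted p = 0.0336), and 8 of the 12 settings without 1 library lost that call. In the NF-kB list 5 of 18 rose and 7 fell: the nuclear inhibitor-like genes Nfkbid and Nfkbiz went in opposite directions, Nfkbid from 7.62, 7.20 and 7.06 to 33.7, 32.7 and 32.7 CPM (log2 fold change 2.18, SE 0.10, adjusted p = 2.3e-10) and Nfkbiz from 15.7, 9.73 and 16.9 to 3.27, 2.04 and 3.59 CPM (log2 fold change -2.21, SE 0.22, adjusted p = 7.78e-07).

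Chemokine ligands were among the largest rises. Of 18 tested, 12 rose, 10 of them at least 2-fold, and 2 fell, with a median log2 fold change of 1.22. Ccl2 (ENSMUSG00000035385.5, chromosome 11, 82035571 to 82037453), which attracts monocytes, stood at 7.86, 8.18 and 7.90 CPM after OGD and at 473, 468 and 326 CPM after recovery (log2 fold change 5.72, SE 0.22, adjusted p = 4.51e-10). Its neighbours Ccl7 and Ccl8, ligands of overlapping receptors, went from 0.829, 0.756 and 0.738 to 26.0, 25.5 and 22.1 CPM and from 0.142, 0.0329 and 0.219 to 15.3, 17.7 and 4.71 CPM (log2 fold changes 4.97 and 6.46, adjusted p = 7.66e-09 and 4.99e-07). The groups of all 3 were far apart, and KO-recovery replicate 3 was the lowest of its group in each. The falls were Cxcl2 and Cxcl10 (log2 fold changes -1.28 and -2.29, adjusted p = 0.0354 and 0.0273), and in both KO-OGD replicate 2 lay among the recovered libraries. No chemokine fall was called without KO-OGD replicate 1, without KO-OGD replicate 3, without KO-recovery replicate 3, or with KO-recovery replicate 2 alone.

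Cytokine genes divided evenly, with 6 of 15 rising and 5 falling, with 3 falling without KO-OGD replicate 1 or without KO-recovery replicate 3 and 2 falling with KO-recovery replicate 2 alone. Il1b, the interleukin released by inflammasome action, rose from 0.971, 1.05 and 0.930 to 8.33, 4.98 and 4.07 CPM (log2 fold change 2.57, SE 0.27, adjusted p = 1.17e-06), while Il1a, uncertain because of Gm14023, fell from 140.3, 112 and 149 to 43.9, 47.5 and 40.1 CPM (log2 fold change -1.61, SE 0.11, adjusted p = 1.03e-08). Tnf was at 25.3, 21.0 and 25.3 CPM and then 29.2, 26.7 and 44.2 CPM (log2 fold change 0.49, SE 0.15, adjusted p = 0.0124), a rise not called without KO-recovery replicate 3. The T cell ligand gene Tnfsf14 rose by 3.29 and Il27 by 2.09 (adjusted p = 3.49e-08 and 2.25e-07). Il6 was low throughout, at 1.47, 0.0329 and 1.80 CPM after OGD and 0.0992, 0.245 and 0.0535 CPM after recovery. Its groups overlapped through KO-OGD replicate 2, although it was called (log2 fold change -3.20, SE 1.16, adjusted p = 0.0328), and 5 of the 12 settings without 1 library lost the call.

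Interferon-stimulated genes rose together: 27 of 32 were called higher, 20 of them at least 2-fold, and none fell, with a median log2 fold change of 1.39. Oas2, which senses double-stranded RNA, went from 5.75, 3.45 and 3.86 to 70.7, 67.0 and 47.8 CPM (log2 fold change 3.81, SE 0.30, adjusted p = 1.03e-06). Irf7, the factor that amplifies interferon production, went from 6.23, 4.08 and 5.20 to 70.1, 78.5 and 45.9 CPM (log2 fold change 3.63, SE 0.34, adjusted p = 7.45e-06). Ifitm3, a membrane protein that blocks virus entry, went from 14.8, 8.87 and 12.5 to 133, 149 and 74.6 CPM (log2 fold change 3.29, SE 0.26, adjusted p = 1.04e-06), and replicate 3 was the lowest recovered library of all 3 genes. Ifit1 rose less, by 0.91 (adjusted p = 0.0369), and was not called in 4 of the 12 settings without 1 library. The members not called were Ifit3b, Isg15, Oasl1, Rsad2 and Bst2, with log2 fold changes of 1.19, 0.53, 1.13, -0.61 and 0.16. Among 10 MHC class I and peptide loading genes 8 rose and none fell, with 5 rises without KO-recovery replicate 2, led by the immunoproteasome subunit Psmb9 (1.48) and the peptide pump Tap1 (1.35), with adjusted p = 7.45e-09 and 2.17e-05.

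All 12 complement genes rose, 9 of them at least 2-fold, with a median of 1.60. C5ar1, the receptor of the C5a fragment, went from 11.3, 14.8 and 11.7 to 191, 188 and 120.5 CPM (log2 fold change 3.73, SE 0.16, adjusted p = 3.57e-10). C3, the central complement protein, went from 92.0, 71.5 and 81.5 to 528, 534 and 594 CPM (log2 fold change 2.76, SE 0.11, adjusted p = 5.92e-11), and that rise was larger than in WT by 0.65 (adjusted p = 0.0199). That difference was not called without WT-OGD replicate 3, WT-recovery replicate 2 or WT-recovery replicate 3. Cfb, of the alternative pathway and uncertain because of Gm20547, rose by 3.00, which was 1.59 more than in WT (adjusted p = 8.77e-07 and 0.0229), the difference being lost in 4 of the 12 settings without 1 library. Of 16 chemoattractant and pattern receptors, 11 rose and 2 fell. Ccr1, a receptor of several CC chemokines, went from 113, 112 and 118 to 501, 523 and 537 CPM (log2 fold change 2.19, SE 0.10, adjusted p = 3.49e-10), and Ccrl2, a non-signalling chemerin receptor, fell from 46.4, 30.0 and 43.6 to 7.09, 7.10 and 7.17 CPM (log2 fold change -2.49, SE 0.15, adjusted p = 3.17e-09). Purine receptors and ectonucleotidases rose in 6 of 10 cases and fell in 1, the largest of the rises at 5 CPM or more being that of the adenosine receptor Adora2b, from 3.93, 4.17 and 3.56 to 15.8, 16.5 and 39.4 CPM (log2 fold change 2.63, SE 0.32, adjusted p = 2.85e-05).

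Of 22 receptors for uptake 11 were higher and 5 lower, or 3 lower without KO-OGD replicate 2 and 8 lower without KO-recovery replicate 3. The inhibitory Fc receptor gene Fcgr2b went from 113, 107 and 106 to 697, 717 and 454 CPM (log2 fold change 2.52, SE 0.14, adjusted p = 1.63e-09), and Clec4n, the lectin Dectin-2, rose by 1.97 (adjusted p = 9.54e-09). Mfge8, which bridges dying cells to phagocytes, fell from 2289, 2534 and 2402 to 863, 1004 and 1057 CPM (log2 fold change -1.30, SE 0.20, adjusted p = 8.26e-05). Marco, a scavenger receptor, was at 81.4, 54.7 and 85.3 CPM and then 41.3, 42.9 and 44.8 CPM (log2 fold change -0.78, SE 0.16, adjusted p = 0.000997), whereas its WT change was 0.19, a difference of -0.97 (adjusted p = 0.0267) that 6 of the 12 settings without 1 library lost.

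Homeostatic microglia genes did not move as one: 10 of 23 rose and 8 fell. Fcrls, an Fc receptor-like scavenger receptor of microglia, went from 4.76, 5.09 and 4.21 to 34.9, 33.6 and 37.9 CPM (log2 fold change 2.92, SE 0.11, adjusted p = 2.63e-11), a rise 1.5 larger than in WT (adjusted p = 7.33e-05). P2ry12, the receptor that guides processes to injury, rose from 3.08, 2.92 and 3.91 to 8.68, 8.41 and 8.09 CPM (log2 fold change 1.34, SE 0.16, adjusted p = 4.94e-06), and Tmem119 to 2.03, 1.55 and 1.77 CPM (log2 fold change 3.19, SE 0.39, adjusted p = 5.67e-06). Both stayed low beside the macrophage markers above. Sall1, a transcription factor of microglial identity, fell from 28.1, 30.4 and 26.7 to 6.00, 6.37 and 4.76 CPM (log2 fold change -2.32, SE 0.13, adjusted p = 1.87e-09), with no overlap. Of 23 genes of disease-associated microglia, 8 rose and 5 fell. Spp1, osteopontin, rose from 7515, 7442 and 8172 to 15600, 19080 and 13370 CPM (log2 fold change 1.05, SE 0.18, adjusted p = 0.000193), and Lpl, lipoprotein lipase, by 1.26 (adjusted p = 2.96e-07). Gpnmb, Apoe and Trem2 had small differences, of -0.18, -0.04 and 0.26 on the log2 scale (adjusted p = 0.192, 0.898 and 0.0268), and the call of Trem2, a lipid-sensing receptor, was lost in 3 of the 12 settings without 1 library. Apoe, the lipid carrier, was at 3364, 4405 and 1588 CPM after recovery, with replicate 3 below the deprived range of 3603, 3013 and 3031 CPM, replicate 2 above it and replicate 1 within it.

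Lysosomal genes were lower more often than higher, 11 of 20 against 4. Atp6v1a, a proton pump subunit, fell from 720.1, 812 and 727 to 339.7, 344 and 389.8 CPM (log2 fold change -1.07, SE 0.09, adjusted p = 1.04e-07). Ctsd, a protease that overlaps Gm49369 and is uncertain, had among the highest counts of KO-OGD, at 27600, 31820 and 29460 CPM, and fell to 16610, 19630 and 13940 CPM (log2 fold change -0.82, SE 0.13, adjusted p = 4.75e-05). Of 20 cholesterol genes 8 fell and 2 rose, or 4 fell with KO-recovery replicate 2 alone and 4 rose without KO-OGD replicate 2. Insig1, the sterol sensor, fell (log2 fold change -1.43, adjusted p = 4.63e-08). The desaturase genes Scd2 and Scd1 of fatty acid synthesis rose by 2.02 and 1.75 (adjusted p = 0.00032 and 0.00158). Abcg1, a cholesterol exporter, rose from 211, 245 and 210.5 to 438, 445 and 357 CPM (log2 fold change 0.90, SE 0.10, adjusted p = 2.63e-06), and its partner Abca1 was not called (log2 fold change -0.03, adjusted p = 0.925), with replicate 3 again the low recovered library at 198, 204 and 104 CPM.

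Genes of repair and matrix remodelling gave some of the largest rises. Arg1 (ENSMUSG00000019987.9, chromosome 10, 24915221 to 24927484), the arginine-degrading enzyme of repair-type macrophages, went from 1.33, 1.58 and 1.09 to 72.4, 71.1 and 65.5 CPM (log2 fold change 5.71, SE 0.18, adjusted p = 1.02e-11). Mmp8, a collagenase, went from 16.5, 19.1 and 19 to 653, 674 and 819 CPM (log2 fold change 5.30, SE 0.17, adjusted p = 1.72e-11). Of 15 matrix proteases and inhibitors 10 rose, 9 of them at least 2-fold, and 1 fell, with a median of 1.52. Mmp9, a gelatinase, went from 0.710, 0.164 and 0.137 to 24.5, 16.0 and 33.2 CPM (log2 fold change 6.08, SE 0.52, adjusted p = 1.98e-06). Adamts1 was the gene that fell, from 144, 187 and 140.2 to 45.1, 41.0 and 44.4 CPM (log2 fold change -1.85, SE 0.17, adjusted p = 1.27e-06). Saa3, an acute phase protein, rose from 4.43, 4.37 and 3.61 to 204, 268 and 414 CPM (log2 fold change 6.16, SE 0.27, adjusted p = 4.34e-09). In each of these genes all recovered libraries lay on the same side of all deprived ones.

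Ribosomal protein genes of the cytosol were lower, by small steps: 22 of 34 fell and none rose, with a median of -0.35, or 14 fell and 2 rose with KO-recovery replicate 2 alone. Rpl13 had the largest fall, from 123, 101 and 105 to 19, 28 and 22.3 CPM (log2 fold change -2.26, SE 0.12, adjusted p = 1.16e-09), followed by Rps2 at -1.74 (adjusted p = 1.66e-09). Ribosomal protein genes have many near-identical processed copies, so their counts are uncertain. Of 33 nuclear genes of the respiratory chain 14 rose and 3 fell, or 9 and 5 without KO-recovery replicate 2. Cox6b1, a subunit of cytochrome oxidase, rose from 118, 114 and 113 to 199.9, 236 and 223 CPM (log2 fold change 0.94, SE 0.08, adjusted p = 9.27e-08), and Cox8a, of the same complex, fell (log2 fold change -1.09, adjusted p = 3.2e-06).

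Cell cycle genes rose with recovery, and rose more in KO, from lower summed levels after OGD, than in WT. All 30 mitosis genes rose, 26 at least 2-fold, with a median log2 fold change of 1.56, and 30 of 33 DNA replication genes rose, with a median of 1.35. Only Cdt1 of these lists, which licenses replication origins, fell (log2 fold change -0.45, adjusted p = 0.00263), and Chaf1a and Slbp were not called. Mcm5, a subunit of the replicative helicase, went from 6.96, 5.39 and 6.92 to 45.5, 43.8 and 39.6 CPM (log2 fold change 2.73, SE 0.12, adjusted p = 1.69e-10). Cdc6, which loads that helicase, went from 1.11, 0.559 and 1.40 to 10.3, 9.63 and 9.80 CPM (log2 fold change 3.25, SE 0.24, adjusted p = 2.37e-08). Mki67, the proliferation marker Ki-67, went from 37.1, 28.6 and 43.5 to 82.0, 65.1 and 70.2 CPM (log2 fold change 0.99, SE 0.14, adjusted p = 1.93e-05). No recovered library of these 3 genes reached down to a deprived one.

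Whether a change differed between genotypes was tested as the KO change less the WT change, which share no library. In WT, 10322 autosomal genes (56.8%) were called for recovery, and 8001 of the 8085 called in both genotypes moved the same way. The difference itself was called for 934 autosomal genes (5.14%), higher in KO for 511 (2.81%) and lower for 423 (2.33%). The balance between those directions depended on scaling: with mitochondrial counts left out, 43.2% of the called differences were higher in KO, against 54.7%. Leaving out 1 library also moved these counts, from 242 higher and 223 lower without WT-OGD replicate 3 to 882 and 831 without KO-recovery replicate 3. Of the 47 named genes called for a difference, 31 kept the call in each of the 12 settings without 1 library. By list, differences were called for 2 higher and 3 lower of the 18 chemokine genes, for 4 complement genes, all higher, for 3 ATF4 targets and 8 ribosomal protein genes, all lower, and for none of the 20 unfolded protein response genes. The complement count fell to 0 without WT-OGD replicate 3, and the ribosomal count ranged from 2 to 13 over the settings without 1 library and was 1 with KO-recovery replicate 2 alone.

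Among mitosis genes the difference was called for 25 of 30, all higher in KO, and among DNA replication genes for 16 of 33, all higher. With KO-recovery replicate 2 alone these counts were 18 and 12, and over the settings without 1 library 17 to 26 and 11 to 18, against 2.81% of all genes. Mki67 in WT was at 76.2, 69.2 and 87.2 CPM after OGD and 77.1, 85.5 and 79.7 CPM after recovery, a change of 0.06 that differed from the KO change by 0.93 (adjusted p = 0.0117), a call lost with KO-recovery replicate 2 alone. Mcm5 in WT was at 13.5, 12.5 and 15.2 and then 27.5, 31.6 and 26.4 CPM, a difference of 1.68, SE 0.16, adjusted p = 6.69e-05. The KO libraries of both genes started below the WT libraries after OGD, and after recovery those of Mcm5 stood above WT while those of Mki67 overlapped WT. Nuf2, a kinetochore component, showed the low start too, at 2.46, 2.07 and 3.15 CPM in KO-OGD and 7.29, 5.67 and 7.53 CPM in WT-OGD, with recovered levels of 10.9, 11.3 and 11.2 and 9.02, 10.5 and 9.62 CPM (difference 1.60, SE 0.22, adjusted p = 0.000875). Clspn, a replication checkpoint adaptor, and Pole, a replicative polymerase, had differences of 2.18 and 2.18 (adjusted p = 0.0003 and 0.00109). Summed over the 30 mitosis genes, levels after OGD were 159 to 234 CPM in KO and 369 to 462 CPM in WT. After recovery these sums overlapped, at 504 to 546 CPM in KO and 499 to 539 CPM in WT. The DNA replication sums were 488 to 516 and 570 to 625 CPM after OGD, and 990 to 1023 and 857 to 901 CPM after recovery, in KO and WT. In bulk libraries, fewer cells of a type, dividing ones included, and less of these RNAs per cell cannot be told apart.

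**Figure D3:**
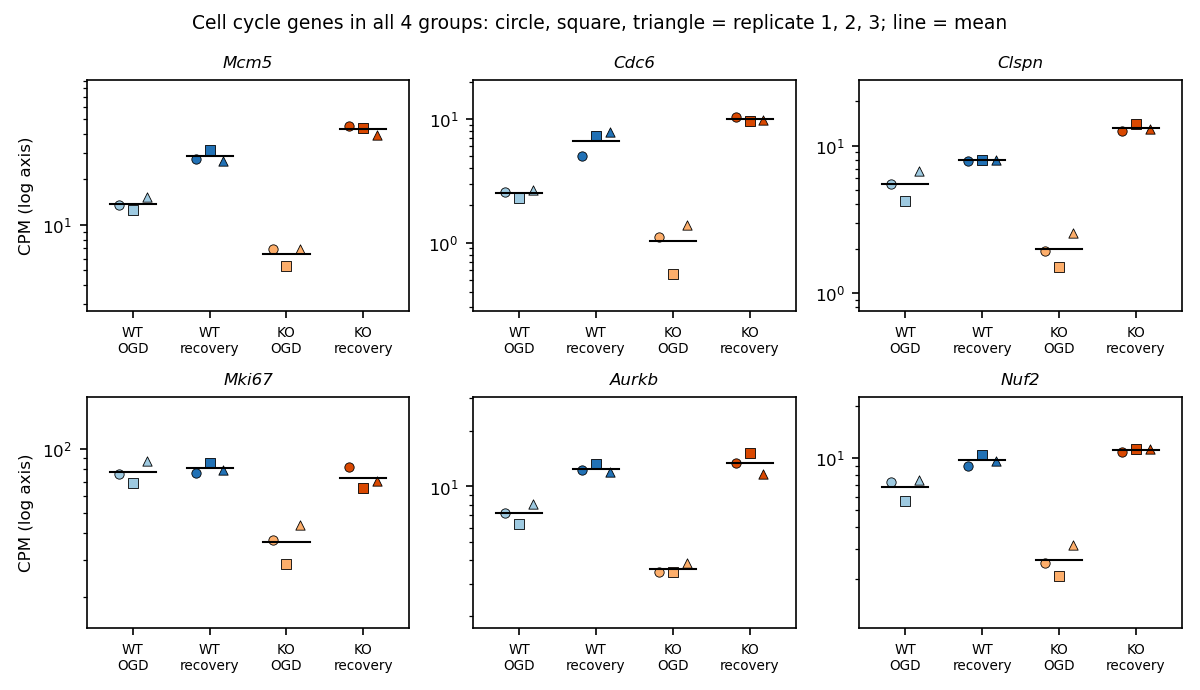
Levels of 6 cell cycle genes in all 4 groups (CPM, log axis), with replicates 1, 2 and 3 as circle, square and triangle and the group mean as a line. The KO-OGD libraries are the lowest of the 4 groups in every panel, and the KO-recovery libraries lie above all WT-recovery ones for Mcm5, Cdc6, Clspn and Nuf2 and overlap them for Mki67 and Aurkb.

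The 2 genotypes differed in 4 MHC class II genes, which present antigen to CD4 T cells: H2-Aa, H2-Ab1, H2-Eb1 and Cd74 fell in KO and rose in WT. Of 8 tested, 4 fell in KO and 2 rose, and the difference from WT was called for 4, all lower in KO, also with KO-recovery replicate 2 alone. H2-Aa (ENSMUSG00000036594.15, chromosome 17, 34282744 to 34287823), an alpha chain, went from 23.8, 11.9 and 19.2 to 3.12, 3.51 and 5.62 CPM in KO (log2 fold change -2.16, SE 0.33, adjusted p = 0.000227) and from 22.3, 14.8 and 16.0 to 69.3, 77.5 and 106 CPM in WT (log2 fold change 2.25), a difference of -4.41, SE 0.43, adjusted p = 0.000476. H2-Eb1, a beta chain, went from 10.7, 6.74 and 9.65 to 1.19, 0.898 and 1.39 CPM in KO and from 11.6, 7.26 and 7.54 to 32.0, 42.6 and 61.4 CPM in WT, a difference of -5.30, SE 0.43, adjusted p = 7.15e-05. After OGD the genotypes overlapped in both genes, and after recovery every KO library was far below every WT library. H2-Ab1 had a difference of -4.09, SE 0.33, adjusted p = 4.62e-05. Cd74, the invariant chain, was at 240.5, 145 and 189.7 and then 137, 140.3 and 134 CPM in KO and at 176, 141 and 146 and then 711, 619 and 799 CPM in WT, a difference of -2.69, SE 0.22, adjusted p = 1.5e-05. The fall of Cd74 in KO was not called without KO-OGD replicate 1. Nor was that fall called with KO-recovery replicate 2 alone, where it was -0.45 on the log2 scale. Ciita, the class II transactivator, was low, at 0.793, 0.817 and 0.803 CPM in KO-recovery and 1.83, 3.17 and 3.33 CPM in WT-recovery, and its difference was not called (-1.17, SE 0.45, adjusted p = 0.153). H2-DMa, a peptide exchange subunit whose span overlaps Brd2 and which is uncertain, rose in KO by 2.50 (adjusted p = 1.83e-11), with a difference from WT of 0.28 (adjusted p = 0.203).

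The chemokine genes Ccl17 and Ccl22, ligands of CCR4, rose in WT and were not called in KO. Ccl17 was at 2.04, 1.35 and 2.08 CPM and then 2.03, 1.39 and 6.00 CPM in KO, and at 1.05, 0.915 and 1.77 and then 46.5, 45.0 and 57.5 CPM in WT, a difference of -4.46, SE 0.60, adjusted p = 0.00303. Ccl22 was at 1.73, 0.592 and 1.34 and then 1.98, 1.39 and 2.68 CPM in KO, and at 0.610, 0.354 and 1.08 and then 65.8, 29.1 and 24.4 CPM in WT, a difference of -5.06, SE 0.79, adjusted p = 0.00689. In KO neither gene was called for recovery (log2 fold changes 0.82 and 0.72, adjusted p = 0.141 and 0.321), and the KO groups overlapped. The KO value of Ccl17 changed sign to -0.06 without KO-recovery replicate 3. The difference of Ccl22 was not called with KO-recovery replicate 2 alone. Both genes lie on chromosome 8, Ccl22 from 94745590 to 94751699 and Ccl17 from 94810453 to 94812036 (GRCm38).

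**Figure D4:**
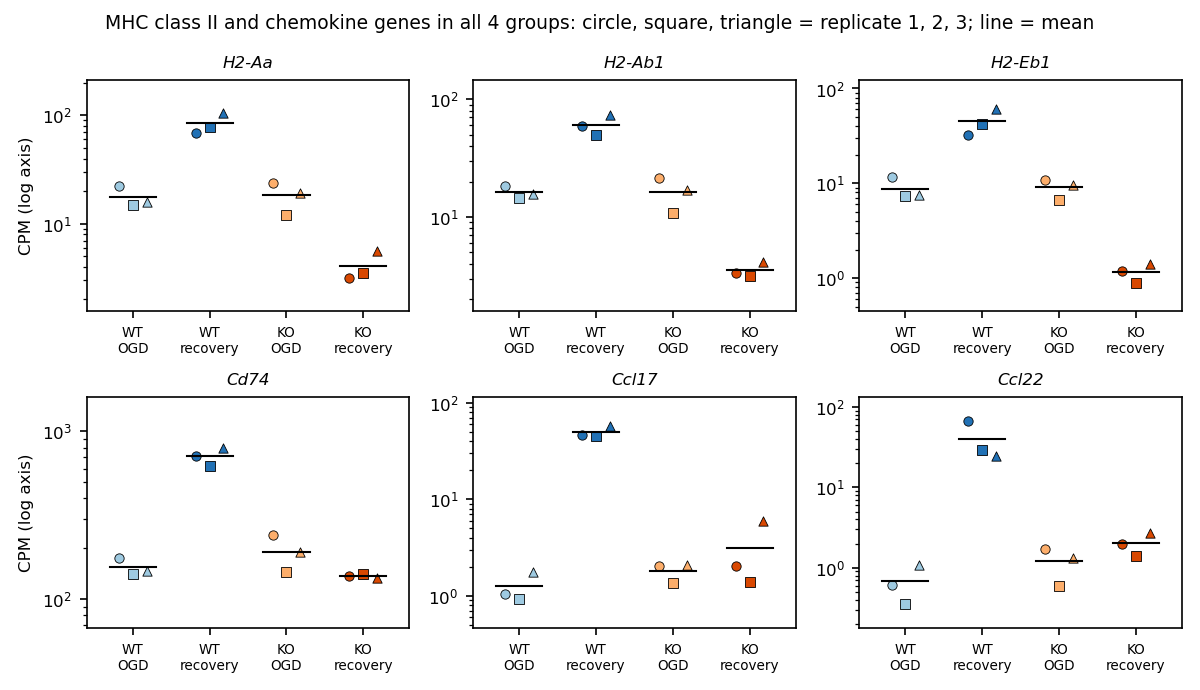
Levels of 4 MHC class II genes and of Ccl17 and Ccl22 in all 4 groups (CPM, log axis), with replicates 1, 2 and 3 as circle, square and triangle and the group mean as a line. WT-recovery libraries are the highest of each panel, and KO-recovery libraries lie below the KO-OGD ones for the 4 class II genes.

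Other genes with the largest differences followed several patterns. Ccr1l1, a receptor gene of the Ccr1 cluster, was already high in KO after OGD, at 129, 115 and 132 CPM, and stayed at 156, 116 and 153 CPM, while in WT it went from 0.634, 0.325 and 0.624 to 50.4, 73.5 and 82.8 CPM (difference -6.81, SE 0.30, adjusted p = 3.13e-08). Ngfr, the p75 neurotrophin receptor, and Igfbp7, a secreted binding protein, were low in KO in both states, at 1.04, 0.245 and 0.750 and 1.98, 1.14 and 1.71 CPM after recovery, and higher in WT-recovery, at 11.7, 15.1 and 13.5 and 29.6, 18.9 and 17.0 CPM (differences -4.58 and -3.49, adjusted p = 0.00205 and 0.000455). Nnat, which lies inside Blcap and is uncertain, rose in both genotypes, by 1.98 in KO and 5.07 in WT (difference -3.09, adjusted p = 0.000105). Ednrb, an endothelin receptor, fell in KO from 58.9, 103 and 58.9 to 14.1, 14.2 and 7.71 CPM and rose in WT from 44.8, 39.9 and 41.7 to 56.4, 95.2 and 79.8 CPM (difference -3.51, SE 0.41, adjusted p = 0.00162). Lyz2, lysozyme of macrophages, was at 18790, 21680 and 20340 and then 15990, 15870 and 15580 CPM in KO and at 17700, 17450 and 16710 and then 23210, 24650 and 24610 CPM in WT, so that the abundant transcript fell in KO and rose in WT (difference -0.84, SE 0.13, adjusted p = 0.0026).

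In the direction of a larger rise in KO, Arg1 reached 11.1, 11.0 and 14.9 CPM in WT-recovery, below every KO-recovery library (difference 1.96, SE 0.28, adjusted p = 0.00109). After thinning to the lowest total the difference of Arg1 was 0.86 and not called (adjusted p = 0.461). Saa3 reached 54.3, 73.1 and 54.8 CPM there (difference 2.36, SE 0.34, adjusted p = 0.00309). The differences of Mmp8 and Ccl2 were 1.21 and 1.12 (adjusted p = 0.00485 and 0.0327), of which that of Ccl2 was lost in 7 of the 12 settings without 1 library. Chil3, a chitinase-like protein of monocytes and macrophages, went from 3.36, 3.22 and 3.69 to 42.4, 39.9 and 67.9 CPM in KO and from 15.0, 14.1 and 16.1 to 45.4, 57.7 and 55.2 CPM in WT (difference 2.06, SE 0.25, adjusted p = 0.00052). Cenpp, which encloses other genes and is uncertain, was at 3.31, 3.42 and 4.10 CPM in KO-OGD and 14.3, 4.08 and 13.6 CPM in KO-recovery (difference 2.46, adjusted p = 0.0162), high in replicates 1 and 3, and not called with replicate 2 alone.

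Markers of other cells moved with recovery as well. Of 5 monocyte markers tested, 4 rose, among them Fn1 from 84.0, 43.4 and 54.3 to 1203, 1164 and 969.9 CPM (log2 fold change 4.20, SE 0.36, adjusted p = 4.66e-06). Their summed level went from 93.6 to 141 CPM in KO-OGD to 1314 to 1489 CPM in KO-recovery, while Ly6c2 and Plac8, the defining monocyte genes, were below the filter. Of 8 border macrophage markers 6 rose, and their sum went from 907 to 1042 CPM to 1872 to 2317 CPM. Pf4, a platelet and macrophage chemokine, went from 4.73, 4.6 and 3.80 to 235, 286 and 421 CPM (log2 fold change 6.16, SE 0.25, adjusted p = 1.24e-09), whereas Lyve1 had 0.397, 0.0817 and 0.321 CPM after recovery and was not called (log2 fold change -0.93, adjusted p = 0.158). Of 11 oligodendrocyte markers 9 rose, with sums of 153 to 158 CPM and 245 to 304 CPM, and of 11 neuron markers 9 rose, with sums of 8.28 to 15.2 CPM and 19 to 32.8 CPM. With KO-recovery replicate 2 alone, 2 neuron markers rose. The named markers Lyve1 and Flt1, like Postn, Ciita, Khk, Cxcl10, Vldlr, Nupr1, Car9, Higd1a and the uncalled interferon genes above, were chosen after their values were seen. Astrocyte markers rose in 2 of 9 cases, with sums of 37.3 to 60.6 CPM and 54.0 to 88.3 CPM. Endothelial and mural markers rose in 3 of 7 cases, with sums of 16.1 to 31.2 CPM and 128 to 139 CPM. The recovered sums were mostly Flt1, at 123, 128 and 112 CPM, while Cldn5, Tek, Tie1, Kcnj8 and Vtn were below the filter. With KO-recovery replicate 2 alone, 1 endothelial marker rose. Neutrophil and lymphocyte lists had 2 and 1 members above the filter. The part of these cells in the results above was not tested.

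Muscle, cartilage and connective tissue genes stood apart by library. Of 16 tested, 15 rose and Postn fell, and the summed level was 113 to 130 CPM in KO-OGD, 552 and 475 CPM in KO-recovery replicates 1 and 3 and 35.5 CPM in replicate 2. The sums include Postn, with a log2 fold change of -2.18, so they do not show how the other 15 genes moved in replicate 2. Acta1, skeletal muscle actin, was at 0.0947, 0 and 0 CPM after OGD and 37.6, 0.980 and 36.4 CPM after recovery (log2 fold change 9.27, SE 1.51, adjusted p = 0.00067), a rise not called with limma-voom (adjusted p = 0.0662). Igf2, a fetal growth factor uncertain because of the overlapping Gm49394, was at 53.3, 1.55 and 47.2 CPM after recovery, and Col3a1, a fibrous collagen, at 46.3, 1.31 and 47.4 CPM. Neither Igf2 with limma-voom nor Col3a1 with KO-recovery replicate 2 alone was called. The high values were those of replicates 1 and 3 in all 3 genes, and replicate 2 was at less than 2 CPM. Myh8, a perinatal myosin, had 0 counts over KO-OGD and 578 over KO-recovery, at least 427-fold higher against a floor of 3 counts over the group, and its rise was not called in a fit of only the 6 KO libraries (adjusted p = 0.0668). Col2a1, cartilage collagen, was at 20.9, 1.63 and 18.7 CPM after recovery and was called for a larger rise in KO than WT (6.62, SE 1.58, adjusted p = 0.0463), a call that 10 of the 12 settings without 1 library lost. The list's 15 rises became 12 with limma-voom or only the KO libraries, 10 after thinning and 5 with the filter of 1 CPM in 6 libraries. With KO-recovery replicate 2 alone 9 of the 16 genes rose and none was called for a larger rise in KO, and in that setting 4267 autosomal genes rose and 4515 fell in all. What brought these transcripts into replicates 1 and 3 was not tested.

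**Figure D5:**
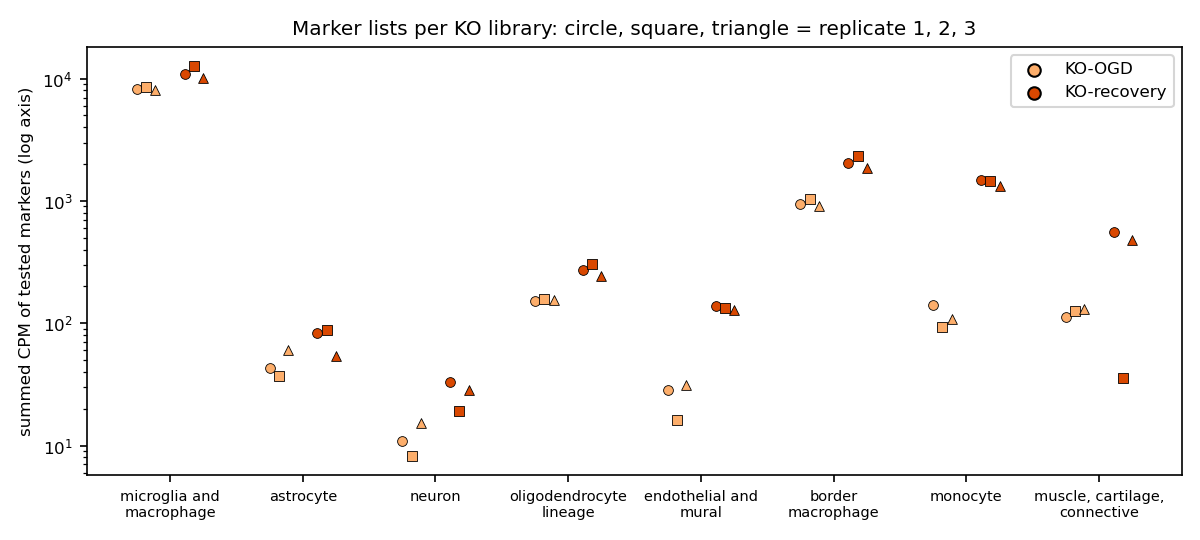
Summed levels of 8 marker lists in each KO library (CPM, log axis), with KO-OGD and KO-recovery side by side and replicates 1, 2 and 3 as circle, square and triangle. Muscle, cartilage and connective tissue markers split KO-recovery replicate 2 (35.5 CPM) from replicates 1 and 3 (552 and 475 CPM), and the monocyte list is higher in all 3 recovered libraries.

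The autosomal transcripts with the highest levels stood on both sides. Shares here are mean CPM as a percentage of the TMM-scaled library size, which differs somewhat from the raw total. Ctsd had a share of 2.96% in KO-OGD and 1.67% in KO-recovery, and Lyz2 went from 2.03% to 1.58%. Psap, the precursor of lysosomal activator proteins, was at 1.9% and then 1.97% and was not called (log2 fold change 0.06, adjusted p = 0.764). Fth1, the iron store ferritin, went from 18260, 18510 and 18040 to 12470, 13840 and 12280 CPM (log2 fold change -0.51, SE 0.09, adjusted p = 0.000279), from 1.83% to 1.29%, and every recovered library was below every deprived one. Spp1 moved the other way, from 0.771% to 1.6%.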

How the data were processed

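RNA was sequenced from cultured mouse microglia in 12 libraries, 3 in each of 4 groups. The authors deposited raw counts per gene, whole numbers without normalization. HISAT2 and featureCounts were used with the build GRCm38 per the submitters' processing notes, and versions and counting options are not given in the sources used here. Symbols and coordinates came from GENCODE M21 (GRCm38), where 55240 of 55421 identifiers matched without their version, and promoters from RefSeq (GRCm38.p6). The members, lists and rule for named genes were chosen with earlier results of these data known.

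Genes were filtered with filterByExpr, scaled by TMM and fitted with edgeR 4.0.16 (robust quasi-likelihood, R 4.3.3) over all 12 libraries with 1 mean per group and no covariate. Recovery in KO, recovery in WT and their difference were tested, adjusted by Benjamini-Hochberg over 18842 genes and called below 0.05. The SE was taken as the absolute log2 fold change over the square root of F. Pairs of replicates had chi-square values per degree of freedom of 6.66 to 60.2 over genes with at least 20 counts, so none was 1 library deposited more than once. Deviations of same-numbered KO libraries correlated at 0.07, 0.011 and -0.101, so the numbers were not used as pairs. Tested on simulated data with 18842 genes, the fit recovered 95% of 2-fold and 100% of 4-fold recovery changes, and 73% and 99% of such differences between genotypes. That simulation changed a small set of genes averaging 1 CPM or more. It gave all genes the same dispersion and had no library that stood apart, so these shares need not hold for the real data. Named were anchor genes, the 10 largest called changes in each direction at 10 CPM or more for recovery in KO and for the difference, up to 3 called members a list and direction at 5 CPM or more, and the 5 genes with the highest counts in each KO group. Some named genes are not reported here. Alternatives were DESeq2 1.42.0, limma-voom 3.58.1, RLE scaling, other filters, only the KO libraries, a replicate block, thinning to the lowest total, mitochondrial counts left out, and each library left out.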

Additional observations from a re-analysis of the deposited data

Results flagged for a closer look

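The change with recovery differed between the genotypes, by edgeR's quasi-likelihood test of the difference itself with Benjamini-Hochberg adjustment, for 47 named genes, of which those reported are given here. Each value is the log2 change with recovery in KO less that in WT, so a positive value is a larger rise or smaller fall in KO. Sex make-up, as read from Xist, and the WT-recovery group cannot be told apart in any of them.

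Cell cycle genes had positive values: Mki67 (0.93), Mcm5 (1.68), Cdc6 (1.83), Uhrf1 (1.70), Nuf2 (1.60), Birc5 (0.86), Aurkb (1.09), Clspn (2.18) and Pole (2.18). So did Cenpp (2.46), whose span holds other genes. Chemokine, complement, repair and immune genes with positive values were Ccl2 (1.12), Pf4 (1.81), Saa3 (2.36), Arg1 (1.96), Socs3 (0.55), Mmp8 (1.21), Cfb (1.59), C3 (0.65), Chil3 (2.06), Casp1 (0.54), Nfkbid (0.54) and Nlrc5 (0.61). The remaining positive values were those of the immediate early genes Fos (1.09) and Btg2 (0.52), the surface genes Fcrls (1.5) and P2ry14 (0.64), and Col2a1 (6.62), F13a1 (2.06) and Fn1 (2.03), of which Col2a1 was high in KO-recovery replicates 1 and 3.

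Antigen presentation genes had negative values: H2-Aa (-4.41), H2-Ab1 (-4.09), H2-Eb1 (-5.30) and Cd74 (-2.69). The receptor gene Ccr1l1 (-6.81) and the chemokine genes Ccl17 (-4.46) and Ccl22 (-5.06) were negative as well. Genes of metabolism and stress with negative values were Hk2 (-0.46), Ddit4 (-0.97), Elovl6 (-0.93) and Me1 (-1.02). The others were Ngfr (-4.58), Ednrb (-3.51), Igfbp7 (-3.49), Nnat (-3.09), Marco (-0.97) and Lyz2 (-0.84). Of the 47 named genes, the calls of 16 were lost in at least 1 of the 12 settings without 1 library: Birc5, Btg2, C3, Ccl2, Cfb, Col2a1, Ddit4, Elovl6, F13a1, Fn1, Fos, Hk2, Marco, Nfkbid, Nlrc5 and Socs3. Several were lost in most settings: Btg2, Col2a1 and Hk2 in 10, Nlrc5 in 9, Fn1, Fos and Nfkbid in 8, and Ccl2 and Ddit4 in 7. The rest were lost in 6 or fewer.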

How the results depend on the processing

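For recovery in KO, the counts of 5331 genes higher and 5401 lower stayed within 1.5 times under every alternative, with 4722 to 5414 higher and 4779 to 5509 lower over the settings without 1 library. The counts of differences between genotypes, 511 higher and 423 lower in KO, depended more on the choices: 788 were lower with DESeq2, 1018 higher and 853 lower with no filter, and 283 higher and 261 lower after thinning to the lowest total. Without 1 library they ranged from 242 to 882 higher and from 223 to 831 lower, the lowest without WT-OGD replicate 3 and the highest without KO-recovery replicate 3. The cause was not tested.

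With only the 6 KO libraries, 4776 genes rose and 4916 fell with recovery in KO. With the replicate block, 5139 genes rose and 5185 fell with recovery in KO, and 355 differences were higher and 269 lower in KO. The numbers were not shown to pair the samples.

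None of the 47 named genes called for a difference between genotypes reversed it. Of 204 named genes, the KO change reversed in 7, none of them called with all libraries: Igfbp7 (-0.05 with no filter, 0 after thinning, -0.52 with KO-recovery replicate 2 alone, and -0.16 to 0.33 without 1 library), Apoe (0 at 1 CPM or more in 6 libraries, 0.45 with replicate 2 alone, -0.38 to 0.27), Abca1 (0.02 in the stricter filter, 0.02 after thinning, 0.25 with replicate 2 alone, -0.18 to 0.23), Psap (-0.01 with no filter, -0.07 to 0.19), Ccl17 (-0.41 with replicate 2 alone, -0.06 to 1.11), Ccr1l1 (-0.12 with replicate 2 alone) and Ngfr (-1.11 with replicate 2 alone). List counts with KO-recovery replicate 2 alone were added after the data were seen. Depth limited the recovered libraries, which held the fewest counts.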
